A study of Homo sapiens with 10 samples.

Results

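The ATP-binding cassette (ABC) genes were followed in OVCAR-3, a human cell line established from an ovarian adenocarcinoma, through confinement in silica gel, recovery from the gel and recovery from cisplatin. Members were the genes whose symbol is ABC, a subfamily letter from A to G and a number. These were 46 of the 58222 genes in the deposited table. Of them, 25 reached at least 1 TPM (a share of the library's transcripts corrected for transcript length) in at least 2 of the 10 libraries and were tested, and 21 stayed below that filter.

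The 5 groups held 2 biological replicates each. The Control group was kept in ordinary culture. In the Day1 and Day3 groups the cells were sampled after 24 hours or 3 days inside silica gel. The Extracted group consists of cells that lived through 3 days in the gel and were then grown in ordinary culture for 2 weeks. Treated cells were never in the gel: they had survived 24 hours in 0.5 uM cisplatin, a DNA-crosslinking platinum compound, and had then recovered for 2 weeks. Extracted and Treated cells are thus survivors of a single cell line, and the same 2 Control libraries enter every comparison with Control.

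ABC proteins share a nucleotide-binding domain that hydrolyses ATP. In subfamilies A, B, C, D and G it is joined to membrane spans and drives the movement of lipids, peptides, metal cofactors, conjugates or drugs across a membrane. ABCE1 and the ABCF proteins have no membrane spans and act on ribosomes and translation. In ovarian carcinoma the family is best known for drug efflux: ABCB1 (P-glycoprotein) exports taxanes and anthracyclines, ABCG2 exports topoisomerase inhibitors, and ABCC1 and ABCC2 export glutathione conjugates, the form in which part of intracellular platinum is thought to leave cells.

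Mitochondrially encoded transcripts held 16.1% and 17% of all TPM in the Control libraries, 2.37% and 4.02% in Day1, 6.13% and 7.79% in Day3, and 10.7% to 11.3% in the Extracted and Treated libraries. Genes for small nuclear, nucleolar and other small RNAs held 14.4% in Treated replicate 2 and at most 2.95% in any other library. TPM are shares, so these amounts shift all other genes. With the libraries rescaled by median of ratios, the median difference over all tested genes shifted by -0.12 for Day1 against Control, 0.14 for Treated against Control and 0.13 for Treated against Extracted, on the log2 scale. With the mitochondrial and small-RNA genes taken out, it shifted by -0.18 for Day1 and -0.12 for Day3 against Control. Effects of the rescalings on the family are given beside its counts. All 10 ovarian carcinoma markers examined passed the filter, PAX8 at 308.6 to 500.5 TPM. In Treated against Control 4 of the 10 were called higher and 3 lower, beside 6.28% and 18.2% of all genes. Extracted against Day3 gave 1 higher and 3 lower (6.3% and 10.8% of all genes). Treated against Extracted gave 3 higher and 1 lower (3.24% and 8.87%). Day1 and Day3 against Control each gave 1 higher (14.4% and 5.18%), and Extracted against Control gave 1 lower (1.13%). Of 5 leukocyte markers, 2 passed the filter, CD14 among them at up to 1.31 TPM. In Treated against Extracted 1 of the 2 was called higher (median of the 2 at 0.50), where 3.24% of all genes were. PTPRC reached at most 0.306 TPM, and CD3E was listed at 0 in all libraries but Treated replicate 2. None of 4 endothelial markers passed the filter, and their highest values were 1.05 TPM for VWF, 0.946 for KDR, 0.747 for PECAM1 and 0.554 for CDH5. Of 6 fibroblast markers, COL1A1 stood at 6.66 to 14.5 TPM and COL1A2 at 0.303 to 1.52, PDGFRB reached at most 0.629 TPM, and DCN, LUM and COL3A1 at most 0.355 TPM.

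The RNA of the family lay mostly with its soluble members. ABCE1 and the 3 ABCF genes together held 56.8% of the summed TPM of the 46 genes on average, from 48.3% to 64.3% per library. Subfamily ABCF held 35.9% of the sum and ABCE1 alone 21.3%. The 4 ABCD genes followed with 16%, the 9 ABCB genes with 11.3%, the 12 ABCC genes with 10.3% and the 12 ABCA genes with 4.97%. The 5 ABCG genes held 0.229%. The summed TPM of the family was lowest in Treated replicate 2, at 386.6, and highest in Day1 replicate 1, at 598.5, while the other libraries lay between 484.4 and 541.7. After removal of mitochondrial and small-RNA genes, Treated replicate 2 was still lowest at 516.3, and the highest was Control replicate 2 at 646.1.

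**Figure D1:**
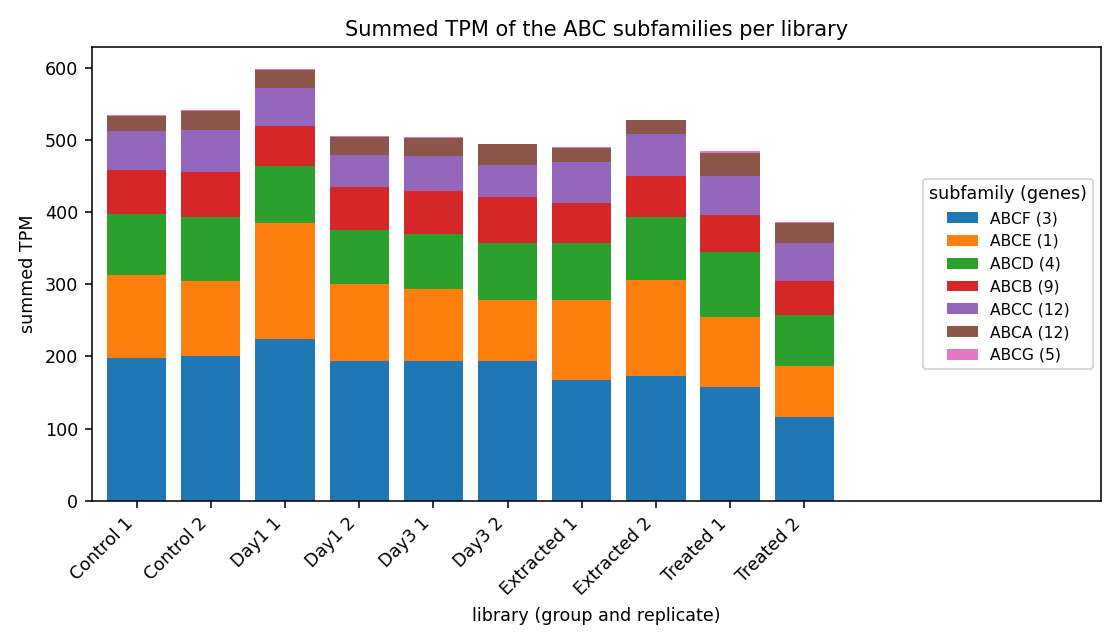
Summed TPM of each ABC subfamily (stacked bars, vertical axis from 0) in each of the 10 libraries (horizontal axis, group and replicate), with the number of genes per subfamily in the legend. The ABCF and ABCE segments make up 48.3% to 64.3% of each bar, and Treated replicate 2 has the lowest total, 386.6 TPM.

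By mean TPM over the 10 libraries, ABCE1 stood at 108.1 and ABCF1 at 103.4. Their ranges over the libraries, 70.1 to 159.8 and 65.2 to 135.4, overlapped almost fully. ABCD4 followed at 53.7, ABCF2 at 40.2 and ABCF3 at 38.2. Levels between 10 and 30 TPM included those of ABCD3 (22.7), ABCC1 (21.9), ABCB6 (15.2), ABCA2 (13.2) and ABCC3 (10.7). ABCC5, ABCB8, ABCC4, ABCC10, ABCA3, ABCB10, ABCB9, ABCA7, ABCA5 and ABCA4 lay between 7.58 and 1.75 TPM. ABCA1, ABCG1 and ABCC6 had means of 0.813, 0.708 and 0.622 TPM and passed the filter only through the groups where they were high. ABCG1 reached 1 TPM only in the 2 Treated libraries, ABCA1 only in the Day3 and Treated libraries, and ABCC6 only in Day3 replicate 1 and Treated replicate 2.

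**Figure D2:**
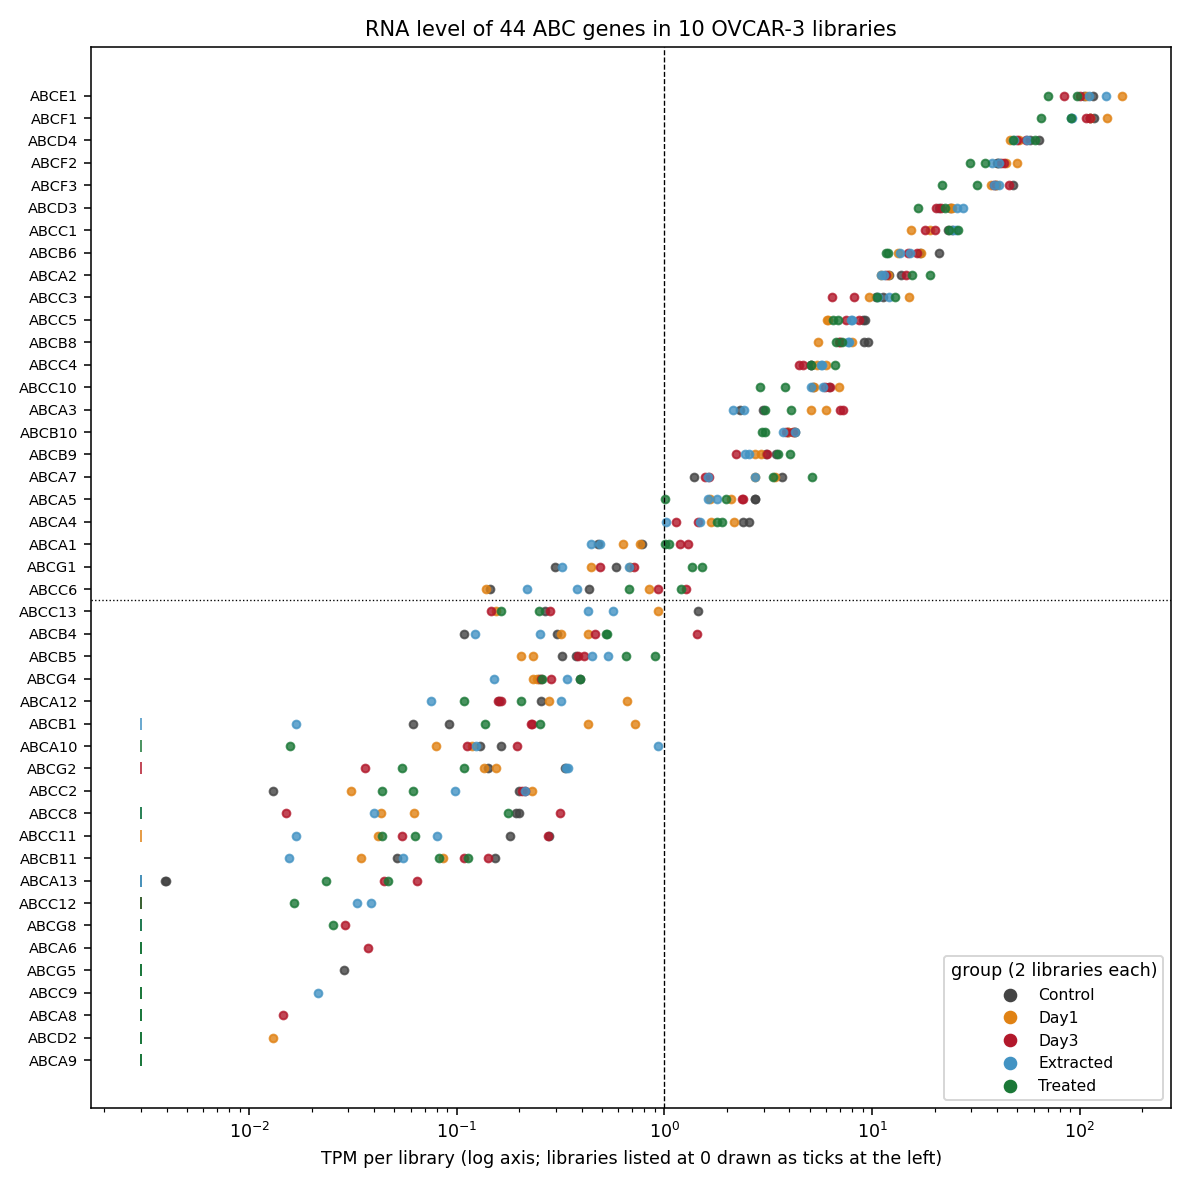
TPM of 44 of the 46 ABC genes (rows, ordered by mean) in every library (points, coloured by group) on a log axis, with libraries listed at 0 drawn as ticks at the left. The dashed line is 1 TPM and the dotted line separates the 23 tested genes plotted from the 21 below the filter, from ABCE1 at 70.1 to 159.8 TPM down to ABCA9, listed at 0 in all 10 libraries.

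Some of these values carry a limit from the genome. The strand setting of the counting is not given in the sources used here, so reads of a gene and of an overlapping gene on the opposite strand cannot be told apart. ABCB9 (mean 3.01 TPM) overlaps ARL6IP4 (194.2 TPM) over 1590 bases on the opposite strand, and ABCE1 overlaps OTUD4 (29.2 TPM) over 18342 bases. On the same strand, another annotated protein-coding gene overlaps ABCB6 over 9246 bases, and another overlaps ABCF2 over 14677 bases. No TPM was found for these overlapping genes. ABCC6 has the near copies ABCC6P1 (0.308 TPM) and ABCC6P2 (0.287 TPM), so that its own 0.622 TPM is uncertain.

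The start regions of the tested members were richer in GC and CpG than those of the members below the filter. RefSeq start sites on GRCh38.p14 were matched for 35 of the 46 members, 19 of them tested and 16 below the filter. Among those not matched were ABCA4, ABCA8, ABCB4, ABCB5, ABCC1, ABCC3, ABCC8, ABCC13 and ABCG1. In the 250 bases upstream of the outermost start, median GC content was 66.4% in the tested members, 45.8% in those below the filter and 57.6% over all 27305 genes with an entry. The median number of CpG dinucleotides was 25, 2 and 10 in the same order. A GC box (GGGCGG on either strand), the core recognised by SP family factors, was present upstream of 14 of the 19 tested members (73.7%) and 3 of the 16 others (18.8%), against 42.2% of all genes. The GC box letters and the CpG count both depend on GC content. A CCAAT box (CCAAT on either strand) was found in 21.1%, 12.5% and 33.0% of the same sets, and CACGTG, the E-box of MYC and TFEB, in 26.3%, 6.25% and 6.46%. The xenobiotic response core GCGTG, on either strand, occurred in 13 of the 19 tested members (68.4%), in 0 of the other 16 and in 31.9% of all genes, and it contains a CpG. The antioxidant response core TGACNNNGC, also on either strand, was in 7 of 19 (36.8%), 0 of 16 and 11.1%. The DR4 repeat read by LXR receptors had 0 matches in either set and was in 0.0146% of all genes. The AP-1 site TGANTCA and the CHOP-ATF4 element TGATGNAAN each had 0 matches among the tested members and 1 among the other 16, against 6.57% and 3.18% of all genes. Matches of different motifs were counted separately where they overlapped, and a match describes letters in this window only. The set of all genes was not split by the filter. Whether the tested members differ from other genes that passed the filter was therefore not tested.

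Upstream sequences of ABCA3, ABCB6 and ABCC5, which were each called in a comparison, and of ABCB1 are shown 5′ to 3′. The minus strand carries all of them. They place GC-rich windows beside an AT-rich window at the outermost start of ABCB1. Starts further inside the ABCB1 gene are not shown, so this window does not describe all of its start regions. Capitals mark GC boxes and CCAAT boxes on either strand, and bases covered by an annotated exon of the gene in GENCODE release 29 are left out. They are chr16:2340747-2340978 of ABCA3 (78.4% GC, 34 CpG in 232 bases), chr2:219219018-219219208 of ABCB6 (61.8% GC, 14 CpG in 191 bases), chr3:184018016-184018134 of ABCC5 (66.4% GC, 9 CpG in 119 bases) and chr7:87713324-87713545 at the outermost start of ABCB1 (40.5% GC, 1 CpG in 222 bases).
ABCA3: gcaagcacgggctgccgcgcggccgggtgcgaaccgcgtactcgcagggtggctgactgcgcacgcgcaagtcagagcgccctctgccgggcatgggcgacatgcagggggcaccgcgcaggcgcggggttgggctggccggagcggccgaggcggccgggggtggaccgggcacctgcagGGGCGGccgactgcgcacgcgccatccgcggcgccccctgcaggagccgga
ABCB6: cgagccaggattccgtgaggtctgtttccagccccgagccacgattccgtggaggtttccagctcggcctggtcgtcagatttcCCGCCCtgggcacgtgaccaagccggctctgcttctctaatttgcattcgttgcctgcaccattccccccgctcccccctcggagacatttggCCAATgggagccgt
ABCC5: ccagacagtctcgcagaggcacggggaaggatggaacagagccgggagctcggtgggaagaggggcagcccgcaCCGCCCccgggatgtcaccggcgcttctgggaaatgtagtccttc
ABCB1: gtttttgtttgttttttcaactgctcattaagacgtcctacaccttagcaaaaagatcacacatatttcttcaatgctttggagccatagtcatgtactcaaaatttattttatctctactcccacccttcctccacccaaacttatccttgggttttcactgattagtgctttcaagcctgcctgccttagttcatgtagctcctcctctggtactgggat

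Of the drug exporters named above, ABCB1, ABCG2 and ABCC2 stayed below 1 TPM in every library, whereas ABCC1 had a mean of 21.9 TPM. ABCB1 (chr7:87503633-87713323, minus strand, GRCh38) was listed at 0.0920 and 0.0617 TPM in Control, 0.722 and 0.428 in Day1, 0.227 and 0.230 in Day3, 0 and 0.0168 in Extracted, with 0.137 and 0.251 in Treated. Its Day1 libraries were the highest of all 10 and its Extracted libraries the lowest, yet no library reached 1 TPM. ABCG2 (chr4:88090264-88231322, minus strand) had 0.142 and 0.332 TPM in Control, 0.155 and 0.135 in Day1, 0.0363 and 0 in Day3, 0.344 and 0.337 in Extracted, with 0.0544 and 0.108 in Treated. The highest ABCG2 values were in the Extracted libraries and the lowest in Day3, without overlap between those groups. ABCC2, the apical conjugate exporter, stayed between 0.0131 and 0.229 TPM. ABCB11, the bile salt export pump, reached at most 0.152 TPM.

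Of the other genes below the filter, 2 reached 1 TPM in a single library: ABCB4, the phosphatidylcholine floppase next to ABCB1, at 1.43 in Day3 replicate 2, and ABCC13, annotated as a transcribed pseudogene, at 1.45 in Control replicate 2. ABCB5, known from melanoma and limbal stem cells, had 0.899 and 0.651 TPM in Treated and 0.203 to 0.536 in the other 8 libraries. ABCG4 had 0.151 to 0.394 TPM, ABCA12 0.0752 to 0.661 and ABCA10 0 to 0.933, the last in Extracted replicate 2. ABCC8, the sulfonylurea receptor of the beta cell, and ABCC11 reached at most 0.313 and 0.279 TPM. KCNJ11, the 1 tested channel subunit of 3 that pair with ABCC8 or ABCC9, was not called in any comparison. ABCA13, ABCC12, ABCG8, ABCA6, ABCG5, ABCC9, ABCA8 and ABCD2 had at most 0.0643 TPM in any library, and ABCA9 was listed at 0 in all 10. A value of exactly 0 may also come from an estimate that failed.

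Several members are neighbours in the genome. ABCA8, ABCA9, ABCA6, ABCA10 and ABCA5 lie side by side on chromosome 17, and of them ABCA5 alone, with a mean of 2.04 TPM, was tested. ABCC1 and ABCC6 lie 5854 bases apart on chromosome 16 with means of 21.9 and 0.622 TPM. The neighbours ABCB4 and ABCB1 on chromosome 7, 23198 bases apart, were both below the filter.

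**Figure D3:**
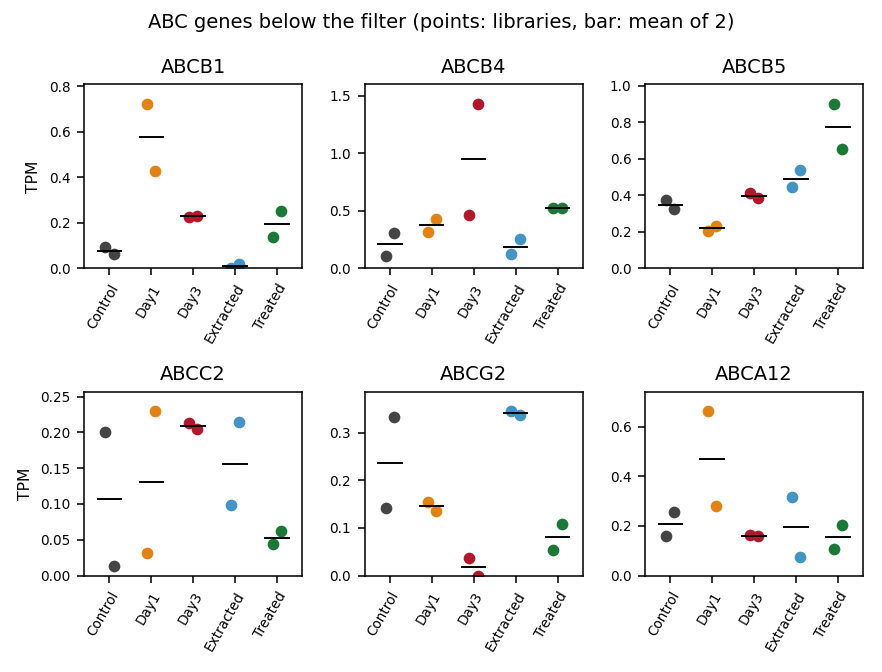
TPM of 6 ABC genes below the filter (panels, each with its own vertical axis from 0), by group, with a point per library and a bar at the mean of the 2. ABCB1 is highest in Day1 (0.722 and 0.428 TPM), ABCB5 in Treated (0.899 and 0.651 TPM), and ABCG2 is highest in Extracted (0.344 and 0.337 TPM).

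With no filter on low values, which left 27869 genes and 45 members, ABCB1 passed the limma test for Day1 against Control (0.54 ± 0.092 on the log2(TPM + 1) scale, standard error, adjusted p = 0.0216), where 5.14% of all genes were called higher. ABCB5 passed it for Treated against Control (0.39 ± 0.084, adjusted p = 0.0344), with 2.77% of all genes higher. ABCG2 passed it for Extracted against Day3 (0.40 ± 0.074, adjusted p = 0.0279), with 2.66% higher. These genes were outside the filter of the main fit, and the levels behind the calls are all below 1 TPM.

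Among the 25 tested members, 10 were called in at least 1 of the 7 comparisons (Benjamini-Hochberg adjusted p under 0.05 in limma, over the 15167 tested genes), which made 13 calls in 175 tests of a member in a comparison. These counts include ABCG1 and its call, though it passed the filter only through the Treated libraries. Differences below are differences of mean log2(TPM + 1), first group minus second, which understate the ratio of low TPM. The median standard error of a member's difference was 0.157. Since the libraries are bulk RNA, fewer cells with a transcript and less of it per cell cannot be told apart.

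Day1 against Control had 3 members called (12%), against 20.7% of all tested genes. ABCA3 rose, as did 14.4% of all genes, and ABCC1 and ABCC5 fell, as did 6.28%. The median over the members was 0.06 and over all genes 0.12. The counts higher and lower were 1 and 4 after median-of-ratios scaling, where ABCD4 and ABCB8 joined the lower calls, and 1 and 5 after removal of mitochondrial and small-RNA genes, where ABCB6 did too. After either rescaling the median over the members was below 0, at -0.03 and -0.10.

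Day3 against Control had 1 member called, ABCA3, which rose (4% of the members), against 9.82% of all genes called, 5.18% higher and 4.64% lower. The member median was -0.09 and that of all genes 0.06. The split became 1 higher and 2 lower under median-of-ratios scaling and 1 higher and 3 lower after the removal, with ABCC1 and ABCA4 lower in both and ABCD4 in the second. No member was called in Day3 against Day1, where 2.35% of all genes were (0.659% higher and 1.69% lower). At an unadjusted limma p under 0.05 there were 3, ABCC3, ABCC5 and ABCE1.

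In Extracted against Control, limma called 0 of the 25 members, with 3 (ABCA4, ABCA5 and ABCB6) at an unadjusted p under 0.05, against 1.99% of all genes called, 0.857% higher and 1.13% lower. Their differences were -0.63, -0.46 and -0.36. Extracted against Day3 had 1 member called, ABCA3, which fell, against 17.1% of all genes called, 6.3% higher and 10.8% lower. The split was 3 higher and 1 lower under median-of-ratios scaling, with ABCC1, ABCC3 and ABCD3 higher, and 2 higher and 1 lower after the removal.

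Treated against Control had 7 members called (28%), close to the 24.5% of all genes. 2 rose, ABCG1 among them, against 6.28% of all genes, and ABCB6, ABCC5, ABCC10, ABCF1 and ABCF3 fell, against 18.2%. ABCG1 entered the test only through the 2 Treated libraries, so its call stays in these counts but adds no support. The member median was -0.18 and that of all genes -0.15. Under median-of-ratios scaling 3 were higher and 3 lower, ABCA2 joining the higher calls and ABCC5 and ABCC10 leaving the lower ones, and after the removal 3 were higher and 7 lower. Leaving out Treated replicate 2, the library with 14.4% small RNA, gave 1 call (17% of all genes). Leaving out Control replicate 1 or 2 gave 2 calls each, where 11.5% and 8.82% of all genes were called. Treated against Extracted had 1 member called, ABCA2, which rose, against 12.1% of all genes called, 3.24% higher and 8.87% lower. Under median-of-ratios scaling 3 were higher and none lower, and after the removal 2 were higher and 1 lower. Leaving out Treated replicate 1 gave 7 calls, 1 higher and 6 lower, with 21% of all genes called.

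**Figure D4:**
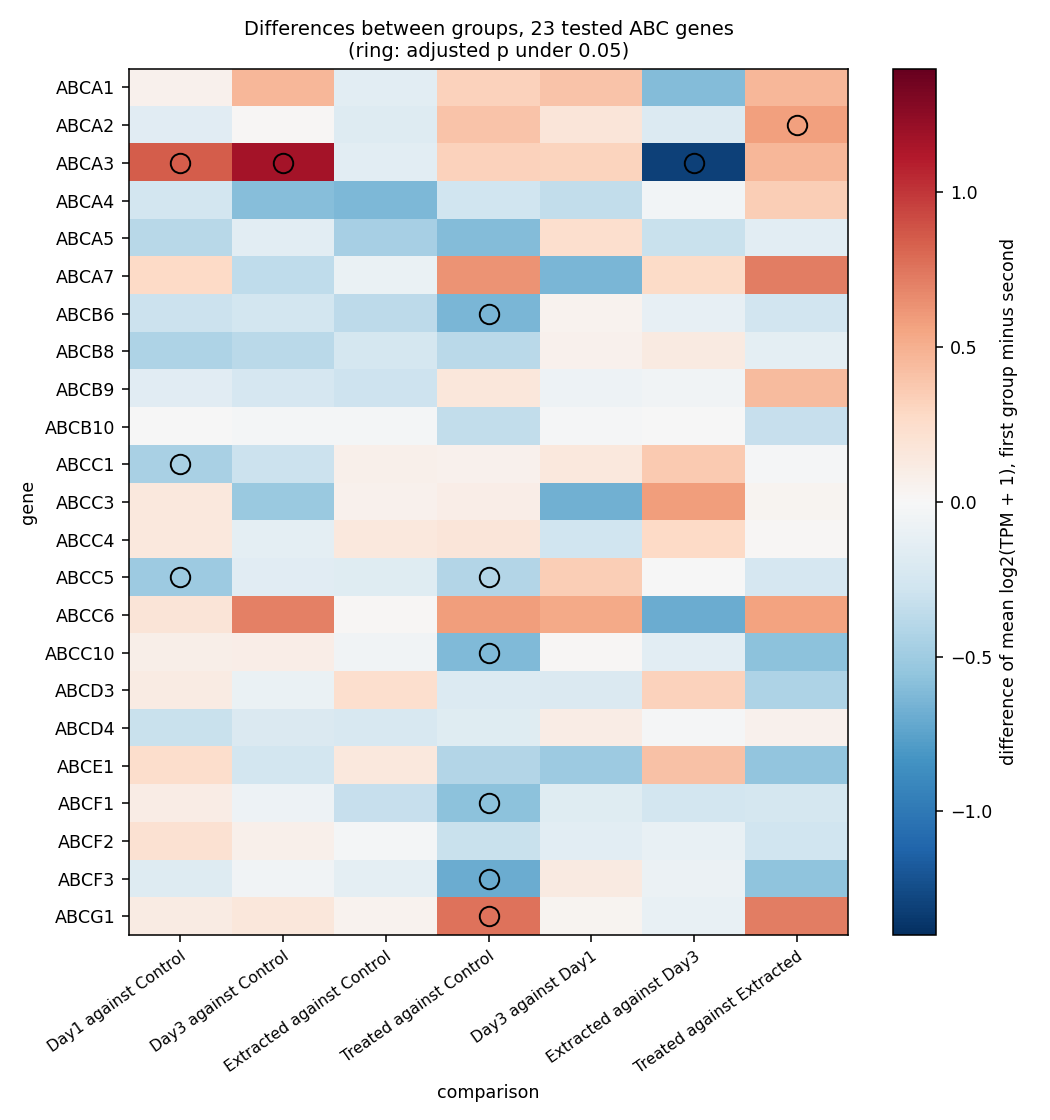
Difference of mean log2(TPM + 1) for 23 of the 25 tested ABC genes (rows) in the 7 comparisons (columns, first group minus second), red for higher and blue for lower, with a ring where the adjusted p was under 0.05. ABCA3 has 3 of the 12 rings, and the column of Treated against Control has 6.

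ABCA3 is a lipid transporter of lamellar bodies that moves phospholipids into these lysosome-related organelles and is best known from lung surfactant. It gave the largest differences of the tested members on the log2(TPM + 1) scale. The gene lies at chr16:2275881-2340746 on the minus strand. It had 2.31 and 2.98 TPM in Control, 5.10 and 6.03 in Day1, 7.25 and 6.99 in Day3, 2.41 and 2.14 in Extracted, with 3.04 and 4.08 in Treated. All gel libraries lay above all others, and the Extracted libraries spanned the level of Control replicate 1. The difference was 0.85 ± 0.171 for Day1 against Control (adjusted p = 0.00889), 1.16 for Day3 against Control (adjusted p = 0.00467) and -1.31 for Extracted against Day3 (adjusted p = 0.00122). In TPM the Day3 mean was 2.69 times the Control mean. The same ratio was larger, 3.81, for ABCC6, which was not called and had means of 1.10 and 0.288 TPM. The calls for Day3 and for release from the gel held under all 6 other settings and with any library left out, while the Day1 call was lost without Control replicate 1. A pseudogene on the opposite strand, ABCA17P, overlaps the gene over 1597 bases and had a mean of 0.185 TPM.

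ABCA2, a transporter of sterols and sphingolipids in endosomes and lysosomes (chr9:137007227-137028922, minus strand), had 12.0 and 13.8 TPM in Control, 11.9 and 11.0 in Day1, 11.6 and 14.5 in Day3, 11.1 and 11.4 in Extracted, with 19.0 and 15.6 in Treated. The Treated libraries were the highest of all 10. The call was between the survivors, 0.58 ± 0.145 for Treated against Extracted (adjusted p = 0.0328), and it was lost with no filter and without either Control library, either Extracted library or Treated replicate 1. Against Control the difference for Treated was 0.39 (adjusted p = 0.0749), and under the 2 rescalings it was 0.55 (adjusted p = 0.0117) and 0.43 (adjusted p = 0.0334).

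The sterol exporters ABCA1 and ABCG1, which load cholesterol onto apolipoproteins and lipoprotein particles and are targets of LXR receptors, were low. ABCG1 (chr21:42199689-42297244, plus strand) had 0.296 and 0.586 TPM in Control, 0.444 and 0.682 in Day1, 0.711 and 0.491 in Day3, 0.675 and 0.320 in Extracted, with 1.36 and 1.52 in Treated. Only the Treated libraries exceeded 1 TPM, which is also how the gene entered the test, so its call (0.76 ± 0.222, adjusted p = 0.0325) adds no support. That call was lost with a pseudocount of 0.1 and without either Control library. ABCA1 averaged 1.24 TPM in Day3 and 1.03 in Treated, and 0.629 in Control, 0.698 in Day1 and 0.467 in Extracted. Like ABCG1, it entered the test only through the groups where it was high.

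The remaining ABCA genes had no call in any of the comparisons in the main fit. ABCA4, the retinoid flippase of photoreceptors, averaged 2.46 TPM in Control and 1.92 in Day1. It was lowest in Day3 (1.30) and Extracted (1.25), with 1.84 in Treated. Its Day3 difference against Control was -0.60 (limma adjusted p = 0.0735). Under median-of-ratios scaling it was -0.63 (adjusted p = 0.0454), and after removal of mitochondrial and small-RNA genes -0.72 (adjusted p = 0.0369). ABCA5, a lysosomal transporter, had 2.74 and 2.73 TPM in Control and 1.99 and 1.01 in Treated (-0.61, adjusted p = 0.0563). The ABCA5 difference was -0.51 (adjusted p = 0.0789) under median-of-ratios scaling and -0.63 (adjusted p = 0.0367) after the removal. ABCA7, which handles phospholipids, spread from 1.39 to 3.66 TPM within Control alone, so that its mean of 4.23 TPM in Treated did not separate (0.63, adjusted p = 0.168).

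Among 15 tested genes for sterol efflux, its regulation and its acceptors, 4 rose and 1 fell on Day1 (median 0.27), 2 rose on Day3 (0.22), 1 rose in Extracted cells (-0.08) and 2 rose and 3 fell in Treated cells (0.08), all against Control. Of all tested genes, 14.4% were higher and 6.28% lower on Day1 (median 0.12), 5.18% and 4.64% on Day3 (0.06), 0.857% and 1.13% in Extracted cells (-0.02), and 6.28% and 18.2% in Treated cells (-0.15). Counts in the gene lists that follow are to be read against these shares. On Day1 the lysosomal cholesterol exporter NPC1 rose by 0.48 and the sterol-sensing factor SREBF2 by 0.47. On Day3 the extracellular lipid-binding chaperone CLU rose by 1.10 and MYLIP, an LXR target that degrades the LDL receptor, by 0.58. In Treated cells RXRA, the LXR partner, fell by 1.10 and APOA1 fell by 0.75. In Extracted against Day3, 4 of the 15 fell and none rose (median -0.31), beside 10.8% of all genes lower and 6.3% higher (median -0.07), led by CLU (-1.69), MYLIP (-1.16) and RXRA (-0.87). In Treated against Extracted, where 3.24% of all genes were higher, 3 rose, MYLIP (0.44), APOE (0.42) and SREBF1 (0.42), and in Day3 against Day1 CLU rose by 0.94.

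**Figure D5:**
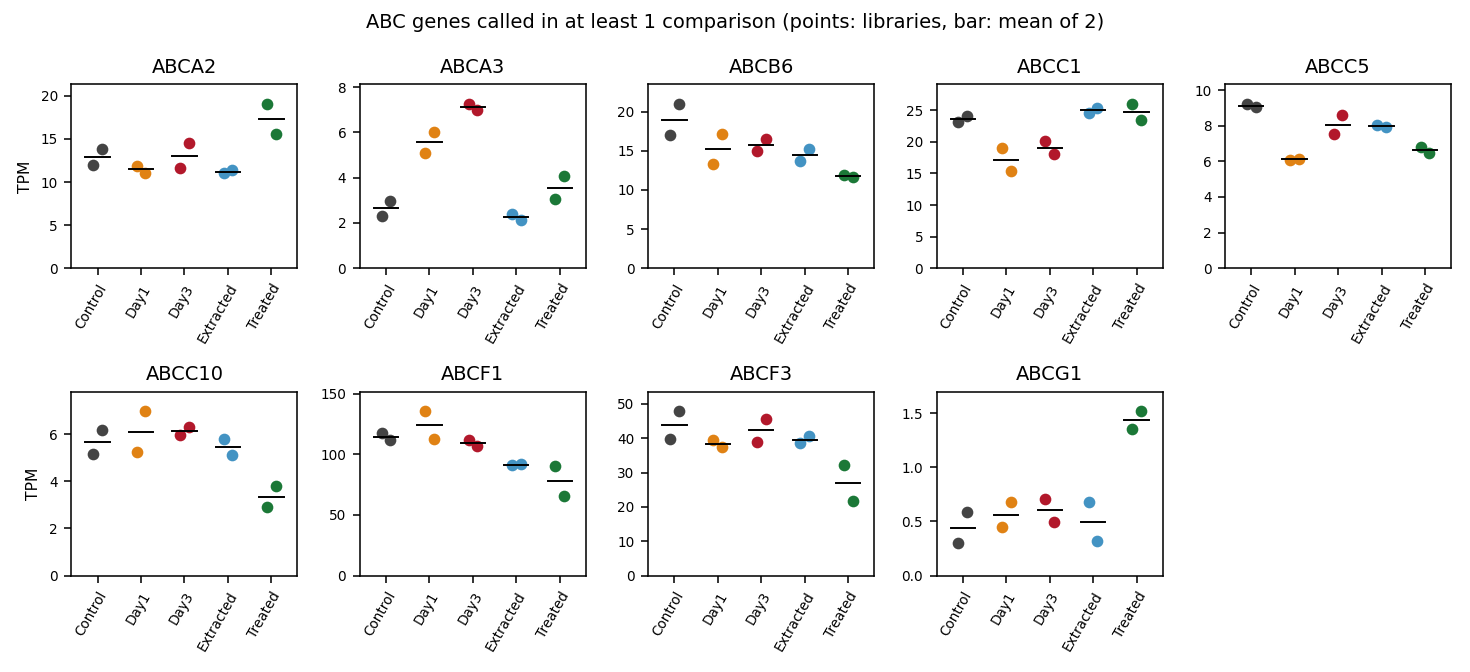
TPM of 9 of the 10 ABC genes called in at least 1 comparison (panels, each with its own vertical axis from 0), by group, with a point per library and a bar at the mean of the 2. ABCA3 is high in Day1 and Day3 (5.10 to 7.25 TPM) and lower elsewhere, and ABCB6, ABCC10, ABCF1 and ABCF3 have their lowest library in Treated.

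Of the conjugate and drug exporters of subfamily C, ABCC1 and ABCC5 fell within 24 hours in the gel. ABCC1 (chr16:15949577-16143074, plus strand), a plasma membrane exporter of glutathione conjugates and of several drugs, had 23.2 and 24.2 TPM in Control, 19.0 and 15.3 in Day1, 20.2 and 18.0 in Day3, 24.5 and 25.4 in Extracted, with 26.0 and 23.4 in Treated. The 4 gel libraries were the lowest, and the Treated libraries overlapped those of Control. The Day1 difference was -0.45 ± 0.126 (adjusted p = 0.0319). It was lost with no filter and without either Control library, Day1 replicate 2 or either Extracted library. The Day3 difference was -0.30 (adjusted p = 0.167), and the difference for Extracted against Day3 was 0.37 (adjusted p = 0.0719). Under median-of-ratios scaling these were -0.36 (adjusted p = 0.0426) and 0.44 (adjusted p = 0.0127). After removal of mitochondrial and small-RNA genes they were -0.44 (adjusted p = 0.0334) and 0.45 (adjusted p = 0.0235). After cisplatin the ABCC1 mean was 24.7 TPM against 23.7 in Control.

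ABCC5, an exporter of cyclic nucleotides and nucleotide analogues (chr3:183919934-184018015, minus strand), had 9.21 and 9.03 TPM in Control, 6.06 and 6.15 in Day1, 7.51 and 8.62 in Day3, 8.04 and 7.94 in Extracted, with 6.82 and 6.45 in Treated. Day1 was lowest and Treated next, and no library reached the Control values. The differences against Control were -0.51 ± 0.122 for Day1 (adjusted p = 0.0178) and -0.41 ± 0.122 for Treated (adjusted p = 0.0367). Leaving out either Control library or Day1 replicate 1 ended the first call. The second was lost under median-of-ratios scaling and with any library left out other than those of Day1.

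ABCC10, an exporter of taxanes and conjugated estrogens (chr6:43427366-43450430, plus strand), had 5.17 and 6.17 TPM in Control, 5.23 and 6.96 in Day1, 5.94 and 6.29 in Day3, 5.79 and 5.10 in Extracted, with 2.90 and 3.79 in Treated. The Treated libraries were the only ones below 5 TPM. The difference against Control was -0.62 ± 0.172 (adjusted p = 0.0269), a call lost with no filter, under median-of-ratios scaling, and without either Control library or Treated replicate 1. For Treated against Extracted it was -0.58 (adjusted p = 0.0569).

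ABCC3, a basolateral exporter of glucuronides, had its lowest values in Day3, 8.17 and 6.43 TPM, against 10.5 and 11.3 in Control and 15.1 and 9.68 in Day1. The Day3 difference was -0.52 against Control (adjusted p = 0.129) and -0.67 against Day1 (adjusted p = 0.122). Without Day1 replicate 2 the difference of Day3 against Day1 was -0.97. That fit kept only the 15.1 TPM of Day1 replicate 1, the highest ABCC3 value of any library. It left out the 9.68 TPM of replicate 2, which was nearer to Control, so it adds no support for a fall. ABCC4, an exporter of cyclic nucleotides and prostaglandins, stayed within 4.45 to 6.65 TPM. ABCC6 had means of 0.288 TPM in Control and 1.10 in Day3 and was not called.

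The genes around this export route were followed in 3 lists. Of 15 tested genes of glutathione synthesis and conjugation, 4 rose and 2 fell on Day1 (median 0.12), against 14.4% and 6.28% of all genes, with GSTM4 (-0.85), the rate-limiting GCLC (0.74) and GSTM2 (-0.73) changing most. On Day3 GSTA4 rose by 1.10 and MGST1 by 0.63 (median 0.12). No gene of the list was called in Extracted cells, where the most abundant, GSTP1 and MGST1, differed from Control by 0.08 and 0.02. In Treated cells GSTA4 rose by 0.75 and GCLM fell by 0.70 (median -0.13). Of 9 tested drug-sensing and stress regulators known to control transporter genes, NFE2L2 rose by 0.69 on Day1 and HIF1A by 0.47 on Day3, none was called in Extracted cells (YBX1 at 0.25 and HIF1A at -0.21), and HIF1A, ARNT and NFE2L2 fell by 0.48, 0.42 and 0.36 in Treated cells. In Extracted against Day3, HIF1A (-0.68) and ARNT (-0.63) fell. The xenobiotic receptors NR1I2 and NR1I3 had means of 0.0222 and 0.0209 TPM. Of 4 tested genes listed for drug export outside the family, 1 was called against Control. It was MVP, a structural protein of vault particles and not a membrane exporter. MVP went from 6.05 TPM in Control to 10.6 in Treated (0.71, limma adjusted p = 0.0126). The copper and platinum pump ATP7A fell from 5.19 TPM in Day3 to 2.35 in Extracted (-0.88, adjusted p = 0.00875).

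In subfamily B, whose tested members sit in mitochondria and lysosomes, ABCB6 fell in Treated cells. ABCB6 (chr2:219209766-219219017, minus strand) carries porphyrins and was described in mitochondrial and other membranes. It had 17.0 and 21.0 TPM in Control, 13.4 and 17.1 in Day1, 14.9 and 16.5 in Day3, 13.7 and 15.2 in Extracted, with 11.9 and 11.6 in Treated. The Treated libraries were the lowest of all, and Day1 replicate 2 was the 1 library of the other groups above Control replicate 1. The difference against Control was -0.64 ± 0.148 (adjusted p = 0.0137) and was lost without Control replicate 2 or Treated replicate 2. ABCB8, of the mitochondrial inner membrane, had 9.18 and 9.51 TPM in Control and group means of 6.76 to 7.70 elsewhere. Its differences against Control lay between -0.43 and -0.25, with adjusted p from 0.0767 to 0.452 over the 4 comparisons. ABCB10, also of the inner membrane, had 2.95 and 3.06 TPM in Treated and 3.73 to 4.26 in all other libraries (-0.35 against Control, adjusted p = 0.0981).

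Heme and iron-sulfur genes, the partners of the mitochondrial members, gave 7 higher and 2 lower calls among 20 on Day1 (median 0.24), against 14.4% of all genes higher and 6.28% lower (median 0.12). PPOX (-0.68), SLC25A37 (-0.52) and SLC25A38 (0.49) changed most. On Day3 LYRM4 alone was called (0.51; list median 0.21). None of the 20 was called in Extracted against Control (median 0.09), with HSPA9 at 0.20 and ISCU at 0.27. In Treated cells 4 of the 20 fell and none rose (median -0.14), close to the 18.2% of all genes that were lower, led by FECH, the enzyme that inserts iron into heme (-0.72), ISCA1 (-0.62) and LYRM4 (-0.54). Treated against Extracted, with 8.87% of all genes lower (median -0.13), gave 3 lower calls, ISCA1 (-0.81), LYRM4 (-0.40) and GLRX5 (-0.35), and a median of -0.29.

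ABCB9, a lysosomal peptide transporter related to TAP1 and TAP2, ranged from 2.20 to 4.02 TPM without a call. TAP1 and TAP2, the peptide transporter of the MHC class I pathway, and CFTR are ABC proteins under other names. TAP1 rose on Day1, from 3.09 and 3.44 TPM in Control to 6.69 and 5.36 (0.71, adjusted p = 0.0124), and had 4.69 and 4.83 in Day3. TAP2 had 14.4 to 36.4 TPM without a call, and CFTR at most 0.158 TPM. Among 8 partners in peptide loading, 2 rose and 2 fell on Day1 (median -0.04), against 14.4% and 6.28% of all genes, with B2M, the class I light chain, at 0.97, CALR at -0.55 and PDIA3 at -0.41. On Day3 TAPBPL (0.68) and B2M (0.65) rose. In Treated cells B2M rose by 0.51 and ERAP1, a peptide-trimming enzyme, fell by 0.71. None was called in Extracted against Control, where B2M stood at 0.37 and PDIA3 at 0.03.

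ABCD3, a peroxisomal importer of fatty acyl groups, had 16.7 to 27.5 TPM and a Treated mean of 19.6 against 22.3 in Control. ABCD2 was listed at 0 in 9 libraries. Among 18 peroxisomal import and beta-oxidation genes, 6 fell and none rose in Treated cells (median -0.23), against 18.2% of all genes lower and 6.28% higher (median -0.15). SLC27A2, a fatty acid ligase (-0.95), EHHADH (-0.63) and ECH1 (-0.60) led them. On Day1 3 rose and 1 fell (median 0.08), PEX13 (0.48) and PEX19 (0.45) among those that rose. On Day3 3 rose, the catalase gene CAT (0.61), ECH1 (0.57) and PEX19 (0.45), with a median of 0.07. In Extracted cells ECH1 fell by 0.42 (median -0.11).

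ABCD4, which with LMBRD1 releases cobalamin (vitamin B12) from lysosomes, was the most abundant membrane transporter of the family. It had 57.7 and 63.7 TPM in Control, 51.0 and 46.4 in Day1, 50.01 and 55.2 in Day3, 48.4 and 55.6 in Extracted, with 60.8 and 47.8 in Treated. All gel and Extracted libraries were below both Control libraries, and the Day1 difference was -0.31 (adjusted p = 0.123). It was -0.45 (adjusted p = 0.0111) and -0.52 (adjusted p = 0.00616) under the 2 rescalings. Of 8 tested genes of cobalamin export and use, 4 rose on Day1 (median 0.32), against 14.4% of all genes, the largest changes being MTRR (0.54), MMADHC (0.48) and MUT (0.44), while LMBRD1 rose by 0.42. On Day3 LMBRD1 (0.47) and MUT (0.46) rose. In Treated cells the methionine synthase gene MTR fell by 0.66 and MMACHC by 0.49, and none was called in Extracted cells against Control (MMADHC at 0.31 and MTRR at 0.10).

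The soluble members ABCF1 and ABCF3 fell in Treated cells. ABCF1, which binds initiation factor eIF2 and ribosomes (chr6:30571376-30597179, plus strand), had 117 and 112 TPM in Control, 135 and 112 in Day1, 112 and 107 in Day3, 91.0 and 91.7 in Extracted, with 90.5 and 65.2 in Treated. Both survivor groups lay below all Control and gel libraries. The difference was -0.57 ± 0.146 for Treated against Control (adjusted p = 0.0197) and -0.32 for Extracted against Control (adjusted p = 0.279). The Treated call was lost with no filter and without either Control library or Treated replicate 2.

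ABCF3, linked to translation and antiviral defence (chr3:184186023-184194012, plus strand), had 39.7 and 47.8 TPM in Control, 39.4 and 37.3 in Day1, 38.8 and 45.7 in Day3, 38.5 and 40.7 in Extracted, with 32.1 and 21.8 in Treated. The Treated libraries were the lowest of all, and Treated replicate 2 was far below its replicate. The difference was -0.70 ± 0.171 (adjusted p = 0.0167), lost with no filter and without Control replicate 2 or Treated replicate 2. ABCF2, with means of 40.2 TPM in Control and 32.3 in Treated, had a difference of -0.31 (adjusted p = 0.0689). The soluble members share their lowest library, Treated replicate 2, with the high share of small RNA, and the part of that share in their values was not tested beyond the rescalings. With the mitochondrial and small-RNA genes removed, ABCF1, ABCF2 and ABCF3 were all called lower in Treated cells, and under median-of-ratios scaling ABCF1 and ABCF3 were.

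ABCE1 (chr4:145097932-145129179, plus strand), the factor that splits ribosomes after termination, had 115 and 104 TPM in Control, 159.8 and 107 in Day1, 99.9 and 83.6 in Day3, 111 and 133 in Extracted, with 97.3 and 70.1 in Treated. Replicates differed widely, and no comparison was called. The difference against Control was 0.25 in Day1 (95% confidence interval -0.21 to 0.71) and -0.41 in Treated (-0.86 to 0.05). Among 14 genes listed for ribosome recycling, termination and rescue, 4 rose on Day1 (median 0.34), against 14.4% of all genes. GTPBP2 (0.64), RPS3A (0.61) and EIF6 (0.43) led them. RPS3A encodes a structural protein of the small ribosomal subunit and not a recycling factor. On Day3 RPS3A alone rose (0.51; median 0.05). In Treated cells GTPBP2 (-0.55) and PELO, the partner that opens stalled ribosomes for ABCE1 (-0.54), fell, while RPS3A rose by 0.43 (median -0.13). In Extracted against Control none was called (RPS3A at 0.38 and EIF2S1 at 0.06), and PELO fell in Treated against Extracted (-0.67).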

How the data were processed

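RNA of 10 OVCAR-3 libraries, 5 groups of 2 biological replicates, was quantified by the authors as TPM per gene, and the deposited table holds TPM only, so read depth is unknown and no counting interval can be given. Per the submitters' processing notes, Trimmomatic, STAR, Cufflinks and the build GRCh38 were used. For their versions and the strand setting the sources used here give nothing. The table's 58313 gene rows (349 lines were blank) include 91 that share an identifier with another, none of them a family member. TPM were summed per identifier to 58222 genes.

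All libraries entered a single limma 3.58.1 fit (R 4.3.3) of log2(TPM + 1) over the 15167 genes that reached 1 TPM in 2 or more libraries. It had a coefficient for each group, 5 residual degrees of freedom and an intensity-dependent prior variance. Tests were two-sided, adjusted by Benjamini-Hochberg over all tested genes within a comparison, and called at 0.05. P-values rest on the spread between replicates pooled over all 5 groups, not on that of the compared groups alone. On simulated data with known answers, the fit for Treated against Control recovered 73% of 2-fold and 28% of 1.5-fold differences in TPM + 1. Only 200 of the 15167 genes were changed there, while 24.5% of all genes were called in the real comparison. These rates need not hold for the real comparison, nor for 2-fold TPM changes of genes with low TPM.

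Replicate numbers appear in the labels, but 0 of 10 between-group correlations of same-numbered deviations exceeded 0.1 (-0.022 to 0.087), so the samples were not treated as paired. The fit was repeated without a filter, with a filter at 5 TPM, with a pseudocount of 0.1, with median-of-ratios scaling, after removal of mitochondrial and small-RNA genes, with a replicate block and without each library in turn.

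Every member below the filter is named, and values in all libraries are given for 9 of the 10 members called in any comparison and for ABCB1, ABCG2, ABCC1, ABCE1 and ABCF1. Of each list of other genes, up to 3 called genes with the largest difference are named per comparison, or the 2 most abundant where none was called. A few genes are not reported here by name and stay in the counts and sums. The values of ABCD4, TAP1 and ABCC3 were added after they were seen. The members and the lists were chosen with earlier results of these data known. Positions are from GENCODE release 29 (46 of 46 members matched) and upstream sequences from RefSeq on GRCh38.p14. Figures were drawn with Matplotlib 3.10.9.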

Additional observations from a re-analysis of the deposited data

Results flagged for a closer look

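ABCA2 differed between the 2 kinds of survivor: 0.58 on the log2(TPM + 1) scale for Treated against Extracted (limma, adjusted p = 0.0328), with 19.0 and 15.6 TPM against 11.1 and 11.4. It was higher in both Treated libraries than in any other library. In this comparison 3.24% of all genes were called higher. The ABCA2 call was lost with no filter and without either Control library, either Extracted library or Treated replicate 1.

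ABCB1 and ABCB5 also passed the test with no filter, above their level in Control, though left out of the main test for low values. Neither reached 1 TPM in any library, and read depth is unknown. The fit with no filter was not repeated with a library left out. ABCB1 gave 0.54 in Day1 against Control (limma, adjusted p = 0.0216), where 5.14% of all genes were called higher. Its values were 0.722 and 0.428 TPM against 0.0920 and 0.0617. ABCB5 gave 0.39 in Treated against Control (limma, adjusted p = 0.0344), where 2.77% of all genes were called higher. Its values were 0.899 and 0.651 TPM against 0.375 and 0.322. Part of ABCB1 is overlapped by RUNDC3B on the opposite strand, with a mean of 0.151 TPM.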

How the results depend on the processing

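The number of members called moved by more than 1.5 times under these settings. The share of all tested genes called is in parentheses. Median-of-ratios scaling gave 5 calls for Day1 (21.6% of all genes) and 3 for Day3 (13.1%) against Control, 4 for Extracted against Day3 (20.7%) and 3 for Treated against Extracted (11.1%). Removal of mitochondrial and small-RNA genes gave 6 (20.3%), 4 (12.5%), 3 (19.5%) and 3 (11.6%) in the same order. With no filter, 3 were called for Extracted against Day3 (6.93%) and 0 for Treated against Extracted (3.65%), and with the filter at 5 TPM 2 for Treated against Extracted (17.3%). With 1 library left out at a time, calls for Day1 against Control ranged from 0 without Control replicate 1 (7.22% of all genes, against 20.7% with all libraries) to 3, and were 1 without Control replicate 2 (6.53%). For Treated against Control they ranged from 1 without Treated replicate 2 (17%, against 24.5%) to 8 without Treated replicate 1 (27.7%) or either Day1 library (27.6% and 27.4%). Day3 against Day1 had 0, or 1 without Day1 replicate 2 (5.57%, against 2.35%). Extracted against Day3 ranged from 1 to 3 without either Day1 library (19.5% and 19.4%, against 17.1%). Treated against Extracted ranged from 0 without either Control library (7.4% and 7.45%, against 12.1%) or either Extracted library (1.63% and 1.11%) to 7 without Treated replicate 1 (21%). The count stayed at 1 for Day3 and 0 for Extracted against Control. Where an arm keeps 1 library, it is assumed to vary like the other groups. The cause of these changes was not tested, but no filter means more genes tested and a left-out library means fewer samples. No called difference changed sign under any setting. ABCG1 could not be fitted without a Treated library, because it then fails the filter, or with the filter at 5 TPM.

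The replicate numbers did not pair the samples. With the replicate number as a block, the counts in the 7 comparisons were 3, 1, 0, 7, 0, 1 and 1, the same as without it. Depth is unknown, which limits what can be said of genes under 1 TPM.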
